A study of Mus musculus with 6 samples.

Results

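The WNT genes described here are 34 of the 56691 genes in the deposited table: the 19 WNT ligand genes, the 10 Frizzled receptor genes, the co-receptor genes Lrp5 and Lrp6, the target gene Axin2, and Lef1 and Tcf7, which encode TCF/LEF transcription factors. Genes entered the set by their symbols. Their expression was compared in mouse macrophages that had been grown from bone marrow with M-CSF, their growth factor, and were sorted once co-culture ended. In 3 libraries (contact) the macrophages had been co-cultured in contact with mEC25 cells, a cancer cell line per the labels, and in 3 libraries (transwell) they had shared the culture without contact. No strain, genotype, age or co-culture time is given in the sources used here, nor is the gate of the sort, and no macrophages cultured alone were analysed here. Whether replicates stem from different cultures or mice is likewise unstated. The p-values therefore reflect only the spread among these 6 libraries, part of which may be technical.

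WNT ligands are secreted lipid-modified proteins that bind a Frizzled receptor together with the co-receptor LRP5 or LRP6. In the canonical pathway this binding stops the destruction complex, built around Axin, APC and the kinase GSK3, from degrading beta-catenin, which then enters the nucleus and activates target genes such as Axin2 with TCF/LEF factors. Other ligand and receptor pairs act without beta-catenin, through planar polarity proteins or calcium. Macrophages are known both as a source of WNT ligands in tissue repair and tumours and as cells that respond to them.

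The promoters of 4 members are shown as examples of the contrasts below. That of Wnt4 is not shown, and Wnt7b, Wnt10a and Fzd6 had no RefSeq promoter in the source used. Wnt7a and Wnt9a were close to absent from transwell libraries, while Wnt6 and Fzd1 were read in both groups and changed in opposite directions. Each line gives the 250 bases before the RefSeq start of the gene on GRCm38.p6, read 5′ to 3′ on the strand of the gene, with CG pairs in capitals. In GENCODE M21, the annotation of the positions below, the last 10 bases of the Wnt7a window and the last 2 of the Wnt9a window lie inside the gene.
Wnt7a (chr6:91411354-91411603, minus strand): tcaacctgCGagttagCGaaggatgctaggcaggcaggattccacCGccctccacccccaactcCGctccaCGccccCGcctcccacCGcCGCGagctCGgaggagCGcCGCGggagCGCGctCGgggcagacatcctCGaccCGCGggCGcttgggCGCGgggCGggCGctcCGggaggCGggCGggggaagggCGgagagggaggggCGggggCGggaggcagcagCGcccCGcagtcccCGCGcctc
Wnt9a (chr11:59306680-59306929, plus strand): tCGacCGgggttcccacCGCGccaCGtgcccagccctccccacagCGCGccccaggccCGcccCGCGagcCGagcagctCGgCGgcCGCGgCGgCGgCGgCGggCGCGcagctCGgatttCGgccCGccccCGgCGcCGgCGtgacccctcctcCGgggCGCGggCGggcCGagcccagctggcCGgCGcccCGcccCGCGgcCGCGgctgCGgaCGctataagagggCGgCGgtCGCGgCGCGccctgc
Wnt6 (chr1:74771642-74771891, plus strand): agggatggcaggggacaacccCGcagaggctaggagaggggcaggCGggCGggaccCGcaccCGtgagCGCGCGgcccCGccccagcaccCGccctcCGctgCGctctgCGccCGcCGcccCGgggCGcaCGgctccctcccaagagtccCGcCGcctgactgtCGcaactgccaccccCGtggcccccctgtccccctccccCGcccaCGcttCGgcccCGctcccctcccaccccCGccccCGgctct
Fzd1 (chr5:4758217-4758466, minus strand): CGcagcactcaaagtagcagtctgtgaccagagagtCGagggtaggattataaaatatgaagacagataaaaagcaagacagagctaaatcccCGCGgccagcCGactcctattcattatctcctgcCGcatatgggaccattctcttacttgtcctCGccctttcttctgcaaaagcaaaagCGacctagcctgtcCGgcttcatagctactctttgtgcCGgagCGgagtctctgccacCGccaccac

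The window of Wnt9a held 48 CG pairs, that of Wnt7a 34 and that of Wnt6 28, against a median of 6 over 32536 RefSeq promoter windows of the same length. At least as many CG pairs as in Wnt9a were found in 0.187% of those windows, and at least as many as in Wnt6 in 7.67%. The window of Fzd1 held 12, a number that 33.7% of all windows reached. Among members with fewer than 30 counts, the window of Fzd9 held 42, that of Wnt3a 41 and that of Wnt8b 5. A link between CG pairs and the changes was not tested. The letters CTTTGAT, a core of the TCF/LEF motif, were in none of the 4 windows shown on either strand. They were in a window of 2 of the 24 members with a RefSeq promoter (Wnt5b and Wnt11), and in 3.21% of all windows. Those 24 members had 31 windows, so a count of members is not directly comparable with a share of windows. The AP-1 letters TGANTCA, searched in the same way, can overlap the end of the other motif. They were in a window of 1 member (Wnt5b) and in 6.73% of all windows.

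The libraries held 20911880 to 22563835 counts in contact and 18173192 to 18895818 in transwell. Levels below are FPKM, read counts scaled to exonic length and library total, as the authors deposited them. The sum over 14 macrophage markers lay between 15848 and 17780 FPKM in contact and between 17337 and 18486 FPKM in transwell libraries. Most of that sum was Lyz2, at 12184.9 ± 838.4 FPKM in contact and 13305.9 ± 484.2 FPKM in transwell. All 14 markers were tested, with 4 higher and 5 lower in contact. Among those that rose, Cd14 averaged 1343.2 ± 30 FPKM in contact and 441.8 ± 15.6 FPKM in transwell. Among those that fell, the Fc receptor gene Fcgr1 averaged 31.6 ± 1.74 FPKM in contact and 109.5 ± 1.02 FPKM in transwell, Adgre1, the gene of the F4/80 antigen, 577.8 ± 57.1 against 1228.4 ± 83.7 FPKM, and Cd68 588.1 ± 43.1 against 879.4 ± 50.7 FPKM. Csf1r, the M-CSF receptor gene, averaged 372.6 ± 26.3 FPKM in contact and 284.2 ± 9.2 FPKM in transwell (SD, n = 3 each), and the pan-leukocyte gene Ptprc 37.2 ± 6.28 FPKM in contact and 22.4 ± 5.76 FPKM in transwell. Endothelial markers summed to 12.8 to 15 FPKM in contact and 7.24 to 7.56 FPKM in transwell, with 4 of 5 tested higher and 1 lower. Most of that sum was Pecam1, at 11.8 ± 1.02 FPKM in contact and 5.9 ± 0.327 FPKM in transwell. Neutrophil markers summed to 761.9 to 1127.2 FPKM in contact and 486.1 to 1143.2 FPKM in transwell, with 3 of 8 higher. Epithelial transcripts were abundant in contact libraries. Of 31 epithelial markers, 24 could be tested and 23 of them were higher in contact, and their sum was 1142.6, 1722.6 and 979.3 FPKM in contact libraries 1 to 3, against 4.94 to 5.59 FPKM in transwell libraries. Krt5, a basal keratin gene, averaged 376.1 ± 120.2 FPKM in contact against 0.0967 ± 0.0379 FPKM in transwell, and Epcam, an epithelial adhesion gene, 7.34 ± 2.51 against 0.01 ± 0.0173 FPKM. Krt15, Cldn4, Dsg3 and Grhl2 had no transwell count. In these bulk samples, fewer cells of a type and less RNA per cell cannot be told apart.

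Of the 34 members, 20 were measured, with 30 or more counts over the 6 libraries, and 14 were not. Among the 14, Wnt1, Wnt2, Wnt3, Wnt8a and Wnt8b had no count in any library. A count of 0 over all 6 libraries allows up to 0.0247 CPM, counts scaled to a common library total (3 counts of the summed total, which covers counting error only). The other 9 had between 1 count (Fzd10) and 28 counts (Axin2) in all. Axin2 with 28 and Lef1 with 24 lay just below the limit, and Wnt11 with 41, Wnt2b with 44 and Fzd2 with 47 just above it.

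Genes were tested with edgeR's quasi-likelihood test after a filter on low counts, and p-values were adjusted by Benjamini-Hochberg over all 14113 genes tested. Of the 20 measured members, 17 passed the filter, of which 12 were higher and 1 lower in contact at an adjusted p under 0.05, and 4 were not called. Over all genes tested, 21.4% were higher and 16.1% lower in contact, 37.5% in either direction. In limma on log2(FPKM + 1), 3420 of 18407 genes were higher and 1288 lower. After quantile normalization of the same genes 2254 were higher and 2613 lower, so the split of calls moved with the scaling. In edgeR 3016 were higher and 2270 lower, among 14113 genes chosen by another filter. The median log2 change was 2.18 over the 17 members and 0.03 over all genes tested. The counts and the median describe the members that passed, and 9 of those 17 reached the count minimum in no transwell library, so that they could pass only by being high in contact. Among the 20 measured members, the 3 contact values lay above all transwell values, in CPM, for 14 and below them for 1, while 35.1% and 14.3% of all genes with 30 or more counts did so.

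**Figure D1:**
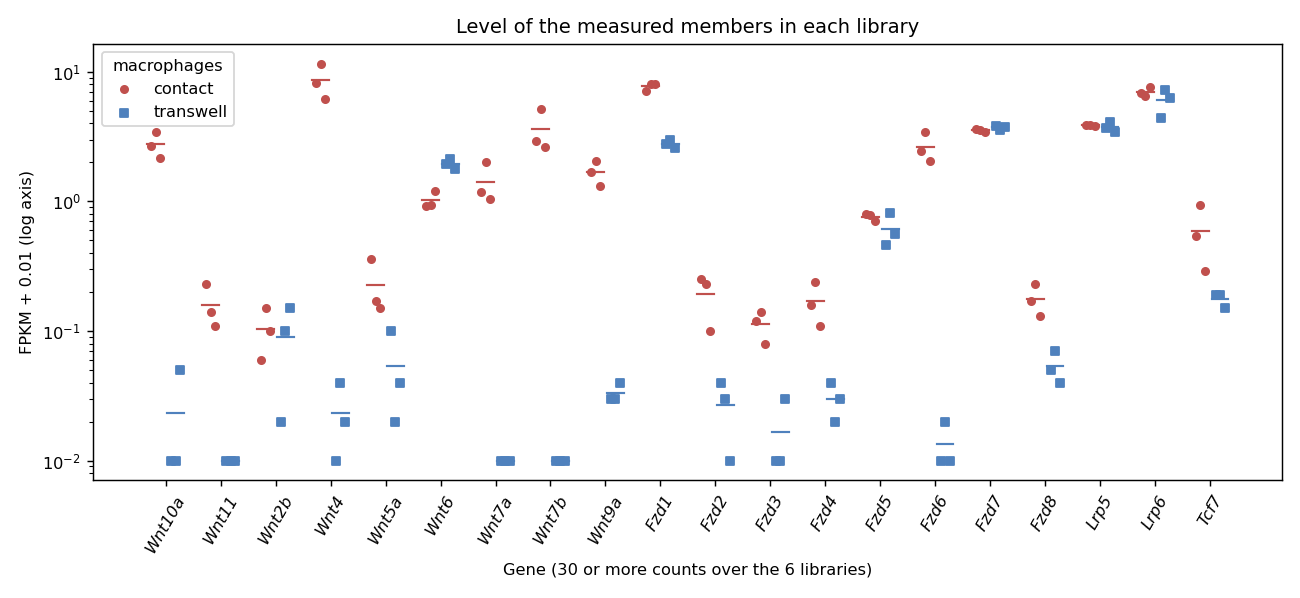
FPKM plus 0.01, on a log axis, of the 20 measured members in each library (red circles, 3 contact libraries; blue squares, 3 transwell libraries; lines, group means). Wnt4, Wnt7a, Wnt7b, Wnt9a, Wnt10a and Fzd6 stand above 1 FPKM in every contact library and at or below 0.04 FPKM in every transwell library, while Wnt6 is lower in contact and Fzd7, Lrp5 and Lrp6 overlap.

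Among the ligands, 6 rose, 1 fell and none of the 7 tested was uncalled, against 21.4% higher and 16.1% lower over all genes tested. Wnt4, Wnt7a, Wnt7b, Wnt9a and Wnt10a reached the count minimum in no transwell library. They could pass the filter only by being high in contact, so the count of rises describes the ligands that passed. Wnt4 (ENSMUSG00000036856, chr4:137277489-137299726 on GRCm38), a ligand known for kidney and gonad development, stood at 8.14, 11.52 and 6.14 FPKM in contact libraries and at 0, 0.03 and 0.01 FPKM in transwell libraries. It was the most abundant ligand transcript of the contact libraries and rested on 3 transwell counts in all. The ratio of its CPM was 664.2, with a 95% counting interval of 227.0 to 3223.0 (edgeR adjusted p = 9.16e-07, n = 3 each). Its fitted log2 change, which depends on a prior count at so few transwell counts, was 9.12, and 9.97 without transwell library 2. Wnt7b (ENSMUSG00000022382, chr15:85535437-85582473), a ligand known in lung and skin epithelium, was read at 2.94, 5.18 and 2.64 FPKM in contact libraries and had no count in any transwell library. It was at least 322.8-fold higher in contact, against a floor of 3 counts over the transwell group (edgeR adjusted p = 1.56e-05). Its close relative Wnt7a (ENSMUSG00000030093, chr6:91363981-91411363) was at 1.17, 2.02 and 1.04 FPKM in contact and likewise had no transwell count, which makes it at least 82.2-fold higher against the same floor (edgeR adjusted p = 5.93e-05).

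Wnt10a (ENSMUSG00000026167, chr1:74791516-74804179), which acts in tooth, hair and skin, stood at 2.69, 3.41 and 2.15 FPKM in contact libraries and at 0, 0 and 0.04 FPKM in transwell libraries. Its count ratio was 188.1, with a counting interval of 51.8 to 1557.8 over 2 transwell counts (edgeR adjusted p = 9.21e-06). Both counts lay in transwell library 3, without which the fitted log2 change was 10.08, against 7.23 with it. Wnt9a (ENSMUSG00000000126, chr11:59306928-59333552), known from joint formation, stood at 1.68, 2.05 and 1.31 FPKM in contact and at 0.02, 0.02 and 0.03 FPKM in transwell libraries (log2 change 6.05 ± 0.39, SE, edgeR adjusted p = 3.56e-06). For all 5 of these ligands the groups were far apart, and contact library 2 had the highest value and contact library 3 the lowest. The epithelial marker sum had the same order of libraries.

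Wnt6 (ENSMUSG00000033227, chr1:74771892-74785322) was the one ligand that fell. It stood at 0.91, 0.92 and 1.19 FPKM in contact libraries and at 1.93, 2.11 and 1.77 FPKM in transwell libraries, with no overlap between the groups. It was 2.08-fold lower in contact (log2 change -1.06 ± 0.22, SE, edgeR adjusted p = 0.00391). Wnt6 and Wnt10a are neighbours on chromosome 1, both on the plus strand and 6.2 kb apart in GENCODE M21, and they changed in opposite directions. In the similar pair on chromosome 11, Wnt9a and Wnt3a lie 16.2 kb apart on opposite strands, and Wnt3a had 6, 5 and 3 counts in contact libraries and none in transwell libraries. Neither gene of the pair Wnt3 and Wnt9b passed 2 counts, and of the pair Wnt1 and Wnt10b only Wnt10b had counts, with 10 in contact and 1 in transwell.

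Wnt5a, which signals mostly without beta-catenin, was low in both groups, with 61, 26 and 25 counts in contact libraries, against 13, 2 and 4 counts in those of transwell. It was called higher (log2 change 2.18 ± 0.60, SE, edgeR adjusted p = 0.0176), and the call ended without contact library 1 (adjusted p = 0.0801) and without transwell library 3 (adjusted p = 0.0800). Without transwell library 1 the log2 change was 3.22. Within each group library 1 had the highest Wnt5a value, and it also had the highest sum of 10 fibroblast markers, which was 25.6, 17.5 and 11.1 FPKM in contact and 8.39, 3.91 and 3.72 FPKM in transwell libraries. Of those fibroblast markers, 5 of 8 tested were higher in contact, and each of the 10 had counts in both groups. The neutrophil marker sum, too, was highest in library 1 of each group, at 1127.2, 867.2 and 761.9 FPKM in contact and 1143.2, 509.6 and 486.1 FPKM in transwell. The part of fibroblasts or neutrophils in the Wnt5a values was not tested. Wnt11 had 21, 11 and 9 counts in contact and none in transwell, at least 11.6-fold higher against the floor of 3 counts, and did not enter the test. Wnt2b, with 25 counts in contact and 19 in transwell, overlapped between the groups and was not tested either. Wnt5b (12 and 3 counts), Wnt16 (10 and 5) and Wnt9b (2 and 0) were too low to compare.

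Summed over all 19 ligand genes, FPKM came to 18.5, 25.8 and 14.9 in contact libraries and to 2.07, 2.29 and 2.1 in transwell libraries. The makeup of that sum differed between the groups. Wnt4 took 43.3 ± 1.88% of it in contact, against 0.595 ± 0.663% in transwell (SD, n = 3 each). Wnt7b took 17.9 ± 2.13%, Wnt10a 14.1 ± 0.709%, Wnt9a 8.6 ± 0.576% and Wnt7a 7.04 ± 0.766% in contact libraries, and each of them at most 1.9% in any transwell library. Wnt6 took 5.49 ± 2.26% in contact and 89.9 ± 4.88% in transwell libraries. Without Wnt6 the ligand sum was 18.7 ± 5.63 FPKM in contact and 0.217 ± 0.1 FPKM in transwell libraries. Across contact libraries the share of Wnt4 lay between 41.2% and 44.7%, and that of Wnt6 between 3.57% and 7.98%.

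**Figure D2:**
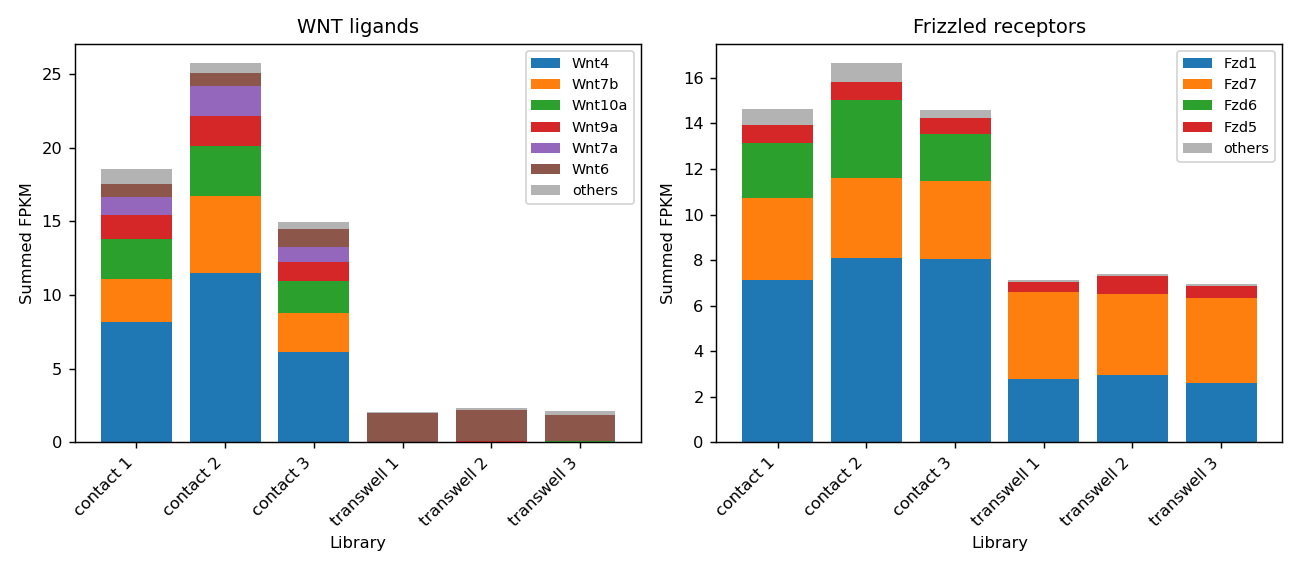
Summed FPKM of the 19 ligand genes (left) and the 10 Frizzled genes (right) in each library, stacked by gene. Transwell ligand bars, 2.07 to 2.29 FPKM high, are mostly Wnt6, and contact bars, 14.9 to 25.8 FPKM high, are mostly Wnt4, Wnt7b and Wnt10a, while Fzd1 and Fzd7 make up most of the Frizzled bars in both groups.

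Among the Frizzled receptors, 5 of 7 tested rose, none fell and 2 were not called, against 21.4% higher and 16.1% lower over all genes tested. Of those that rose, Fzd3, Fzd4, Fzd6 and Fzd8 reached the count minimum in no transwell library and could pass only by being high in contact. Fzd1 (ENSMUSG00000044674, chr5:4753839-4758035) was, like Wnt6, read in every transwell library. It stood at 7.11, 8.09 and 8.05 FPKM in contact and at 2.76, 2.95 and 2.59 FPKM in transwell libraries, with no overlap. It was 2.58-fold higher in contact (log2 change 1.37 ± 0.10, SE, edgeR adjusted p = 6.01e-06). Its contact values relative to their mean were 0.92, 1.04 and 1.04, against 0.90, 1.34 and 0.77 for the epithelial marker sum, both in CPM. The level of Fzd1 thus did not follow the order of the marker sum among contact libraries.

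Fzd7, related in sequence to Fzd1 and Fzd2, was level between the groups, at 3.6, 3.53 and 3.44 FPKM in contact and 3.83, 3.56 and 3.74 FPKM in transwell libraries. Its log2 change was -0.19, with a 95% interval of -0.40 to 0.02 (edgeR adjusted p = 0.140). Fzd5, at 0.79, 0.77 and 0.7 FPKM in contact and 0.45, 0.8 and 0.55 FPKM in transwell libraries, also overlapped. Its log2 change was 0.22, with an interval of -0.27 to 0.72 (edgeR adjusted p = 0.471). No stretch of 50 bases was shared between the GENCODE M21 transcripts of any 2 members, whereas 16.45% of such stretches of Fzd5 also occur in a gene that is no member, as do 13.72% of those of Lef1 and 7.46% of those of Wnt11, so the counts of these 3 genes are less certain.

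Fzd6 (ENSMUSG00000022297, chr15:39006034-39038188), a receptor known from planar polarity and hair patterning, stood at 2.45, 3.42 and 2.03 FPKM in contact and at 0, 0.01 and 0 FPKM in transwell libraries. The transwell value rests on a single count, in library 2, without which the fitted log2 change was 10.98, against 8.93 with it. The count ratio was 701.5, with a counting interval of 125.6 to 27739.1 (edgeR adjusted p = 1.62e-06). Fzd3, which acts with Fzd6 in planar polarity, had 87 counts in contact and 5 in transwell (log2 change 3.68 ± 0.65, SE, edgeR adjusted p = 0.00165). Of those 5 counts 4 were in transwell library 3, without which the log2 change was 5.23. Fzd4, also a receptor for the non-WNT ligand norrin, had 70 and 7 counts (2.92 ± 0.56, adjusted p = 0.00260, and 3.51 without transwell library 1), and Fzd8 had 65 and 14 (1.84 ± 0.43, adjusted p = 0.00807). All 3 were below 0.25 FPKM in every library. The Fzd8 call ended without transwell library 3 (log2 change 1.60, adjusted p = 0.05 as rounded). Fzd2, with 44 counts in contact and 3 in transwell, was not tested and had a count ratio of 12.4 with a counting interval of 3.98 to 62.6. Fzd9 and Fzd10 had 4 counts and 1 count in all.

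The Frizzled sum was 15.3 ± 1.18 FPKM in contact and 7.17 ± 0.222 FPKM in transwell libraries, and 12.7 ± 0.536 and 7.17 ± 0.217 FPKM without Fzd6 (SD, n = 3 each). Fzd1 took 50.8 ± 3.79% of the sum in contact and 38.5 ± 1.33% in transwell libraries. Fzd7 took 23.1 ± 1.75% in contact and 51.8 ± 3.24% in transwell libraries, and Fzd6 17.1 ± 3.32% and 0.045 ± 0.0779%. The leading Frizzled transcript was therefore Fzd1 in each contact library and Fzd7 in each transwell library, as the stacked bars show.

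The co-receptor transcripts did not differ detectably. Lrp5 stood at 3.88, 3.85 and 3.84 FPKM in contact and 3.7, 4.12 and 3.45 FPKM in transwell libraries (log2 change -0.08, 95% interval -0.27 to 0.12, edgeR adjusted p = 0.544). Lrp6 stood at 6.86, 6.45 and 7.65 FPKM in contact and 4.42, 7.29 and 6.29 FPKM in transwell libraries (0.11, interval -0.24 to 0.46, adjusted p = 0.635). Both intervals lie below the log2 change of Fzd1.

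**Figure D3:**
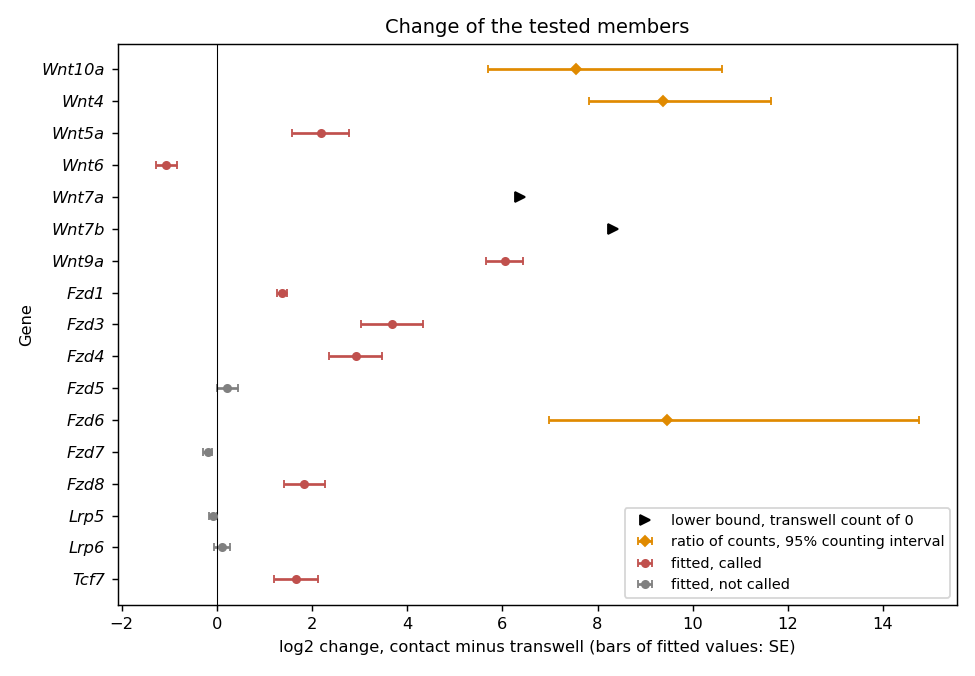
Log2 change, contact minus transwell, of the 17 tested members (red and grey circles, fitted values with SE, called and not called; orange diamonds, log2 ratio of counts with its 95% counting interval where transwell held 1 to 3 counts; black arrows, lower bounds where it held none). Only Wnt6 lies clearly below 0, and Fzd5, Fzd7, Lrp5 and Lrp6 lie near 0.

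The nuclear end of the pathway was thinly read. Axin2, which encodes a scaffold of the destruction complex and is a widely used readout of canonical signalling, had 18, 2 and 6 counts in contact libraries, against 1, 1 and 0 in transwell. Most of its contact counts came from library 1, and with 28 counts in all it was not tested. Lef1, with 10, 1 and 2 counts in contact against 3, 0 and 8 in transwell, overlapped between the groups. Tcf7 (ENSMUSG00000000782, chr11:52252371-52283014), which encodes TCF1, stood at 0.53, 0.92 and 0.28 FPKM in contact and 0.18, 0.18 and 0.14 FPKM in transwell libraries. It was called higher (log2 change 1.66 ± 0.46, SE, edgeR adjusted p = 0.0177), and the call ended without contact library 2 (adjusted p = 0.0744) and without transwell library 3 (adjusted p = 0.0737).

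Tcf7 and Lef1 are best known in T cells. Of 14 lymphoid markers, 3 were tested and 1, Cd4, was higher in contact, and none of the 14 was without counts. Their summed level was 13.9 to 19.8 FPKM in contact and 12.5 to 16.3 FPKM in transwell libraries, and Cd3e, which encodes a chain of the T cell receptor complex, had 10 counts in contact and 8 in transwell. The part of lymphoid cells in the Tcf7 values was not tested.

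Members were also compared with the epithelial markers across the 3 contact libraries. Of the 12 members called higher, 10 had the marker order, with library 2 highest, then 1, then 3. The same order was found in 25.5% of all genes tested, 44.3% of all genes called higher and 55.9% of the 765 genes called higher with a mean transwell level under 0.1 FPKM. The exceptions were Fzd1 and Wnt5a. Relative to their own contact mean, Wnt4 stood at 0.95, 1.34 and 0.71 and Fzd6 at 0.93, 1.30 and 0.77, close to the 0.90, 1.34 and 0.77 of the marker sum. Wnt7b spread wider, at 0.82, 1.44 and 0.74, and Wnt9a less, at most 1.22 and at least 0.78. Wnt6 stood at 0.90, 0.91 and 1.18, highest where the marker sum was lowest. These are descriptions over 3 libraries, and the part of epithelial RNA in the contact values was not tested. Among the 5 members with a mean transwell level of at least 1 FPKM, which are Wnt6, Fzd1, Fzd7, Lrp5 and Lrp6, a fit on genes past that level called Fzd1 higher and Wnt6 lower and did not call the other 3.

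**Figure D4:**
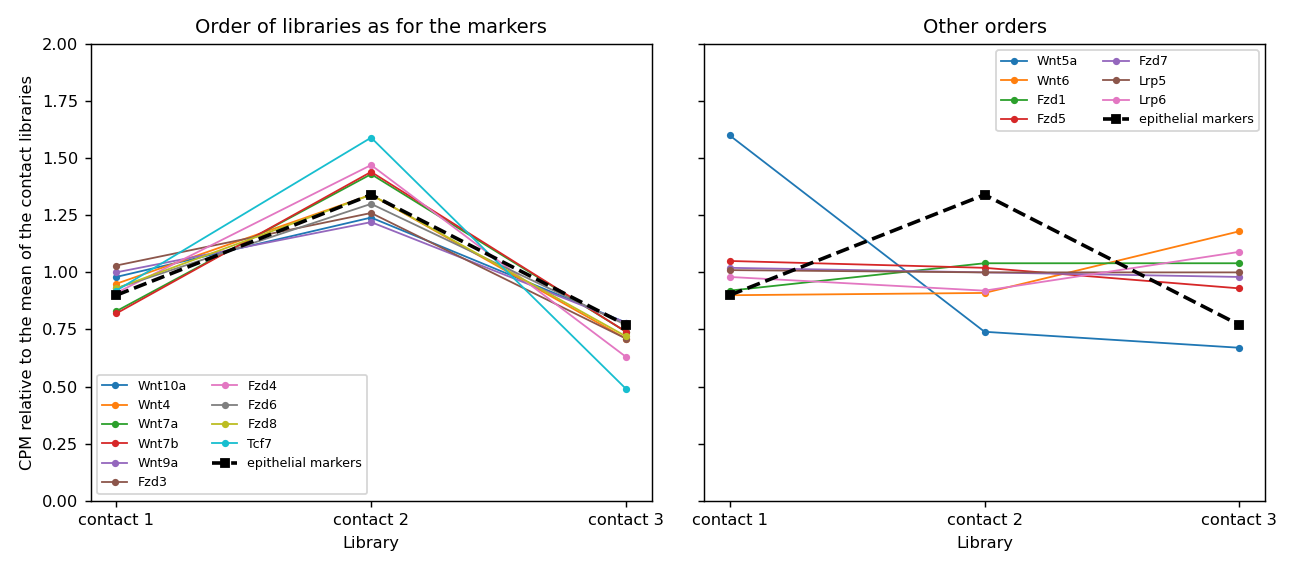
CPM of each tested member in the 3 contact libraries, relative to its mean over them, for members with the library order of the epithelial markers (left) and with other orders (right); the dashed black line is the marker sum. The 10 members on the left peak in contact library 2, as the marker sum does at 1.34, while Wnt5a peaks in library 1 at 1.60 and Fzd1, Fzd7 and Lrp5 stay between 0.92 and 1.04.

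Other genes of the pathway were read from lists by role. Of 92 listed genes, 90 were in the table and 60 were tested, of which 30 rose, 4 fell and 26 were not called, with a median log2 change of 0.32. Over all genes tested, 21.4% were higher and 16.1% lower, which is the share to set beside each count that follows. Some of the genes that rose reached the count minimum in no transwell library, among them Ptk7, Vangl1, Celsr1, Tcf7l1, Dkk3 and Apc2. They could pass the filter only by being high in contact, so the counts of rises describe the genes that passed. In ligand secretion, Porcn, the acyltransferase that adds the lipid to WNT proteins, rose. It stood at 2.19, 3.59 and 1.82 FPKM in contact and at 0.97, 0.83 and 0.81 FPKM in transwell libraries (log2 change 1.42 ± 0.26, edgeR adjusted p = 0.00224), with the library order of the epithelial markers. Wls, the carrier that takes WNT proteins to the surface, was at 11.4 ± 0.8 FPKM in contact, against 10.4 ± 0.416 FPKM in transwell (log2 change 0.01, adjusted p = 0.944).

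Of 17 genes for secreted or membrane-bound inhibitors in the table, 3 were tested, 2 rose and none fell. Those that rose were Dkk3 (0.36 ± 0.286 FPKM in contact and 0.07 ± 0.0265 FPKM in transwell) and Apcdd1 (0.1 ± 0.03 and 0.04 ± 0.0173 FPKM), both near the floor. In the R-spondin module both tested genes rose, namely the R-spondin receptor gene Lgr4 (log2 change 2.58 ± 0.33) and Znrf3, which encodes a ubiquitin ligase that removes Frizzled from the surface (0.71 ± 0.22). Of 13 tested genes for alternative receptors and planar polarity proteins, 7 rose, 2 fell and 4 were not called. The largest rises were the co-receptor gene Ptk7 (3.29 ± 1.06 FPKM in contact and 0.06 ± 0.03 FPKM in transwell), the polarity gene Vangl1 (1 ± 0.315 and 0.02 ± 0.01 FPKM) and the cadherin gene Celsr1 (0.367 ± 0.112 and 0.01 FPKM). Prickle1 (log2 change -2.11 ± 0.59) and Celsr3 (-0.89 ± 0.15) fell.

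Of 16 genes of Dishevelled and the destruction complex, 5 were higher, 1 was lower and 10 were not called, with a median log2 change of 0.11, and the share called equalled the 37.5% of all genes tested. The kinase gene Csnk1e rose (10.2 ± 0.488 FPKM in contact and 5.35 ± 0.15 FPKM in transwell), as did Apc2 near the floor (48 counts in contact and 13 in transwell) and Apc (0.45 ± 0.15), while Btrc, which encodes the ubiquitin ligase subunit that recognises beta-catenin, fell (-0.47 ± 0.12). Of 16 nuclear factors 6 rose, 1 fell and 9 were not called. Ctnnb1, the beta-catenin gene, stood at 84.2 ± 3.26 FPKM in contact and 63.0 ± 1.35 FPKM in transwell libraries (log2 change 0.30 ± 0.07, edgeR adjusted p = 0.00518). Tcf7l1 had 122 counts in contact and 5 in transwell (4.17 ± 0.64), and the co-repressor gene Tle1 (0.78 ± 0.11) and the co-activator gene Bcl9l (0.72 ± 0.12) rose, whereas Tle4 fell (-0.43 ± 0.11). Tcf7l2, the most abundant TCF/LEF gene here at 4.6 ± 0.296 FPKM in contact and 3.64 ± 0.495 FPKM in transwell libraries, was not called (log2 change 0.22, adjusted p = 0.151).

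Of 14 other known target genes in the table, 8 were tested, of which 7 rose and none fell, with a median log2 change of 2.79, against 21.4% higher over all genes tested. Among the 6 that were not tested, Nkd1 had 3 counts in contact and 3 in transwell, Ascl2 20 and 20, and Mmp7 3 and 2. The others had more counts in contact, with 25 and 1 for Tnfrsf19, 18 and 7 for Nkd2, and 2 and 0 for Sp5. The cell cycle gene Ccnd1 stood at 13.43, 20.94 and 10.97 FPKM in contact and 1.45, 1.46 and 1.18 FPKM in transwell libraries. Sox9 (231 counts in contact and 2 in transwell) and the ephrin receptor gene Ephb3 (298 and 2) were close to absent from transwell libraries and could pass the filter on low counts only through contact. Ephb2, with 71 counts in contact and 11 in transwell, likewise could pass only through contact. Ccnd1, Sox9 and Ephb3 had the library order of the epithelial markers, and the other 4 that rose, Ccn4, Ephb2, Myc and Cd44, did not.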

How the data were processed

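RNA sequencing of sorted macrophages was analysed in 3 contact and 3 transwell libraries, grouped by sample title. Per the file headers, the authors deposited for each Ensembl gene its raw read count and its FPKM. Where a count exceeded 100, the FPKM recomputed from count, exonic length and library total came within 1% of the deposited one for 99.93% of values. GRCm38 and mm10 are the builds named in the submitters' processing notes, while the aligner, read counter, annotation and strandedness were not given in the sources used here. In GENCODE M21, 7 members overlap exons of an opposite-strand gene, each with at most 2 counts.

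The members and lists were chosen with earlier results of these data known. Every member with 30 or more counts is named; of other pathway genes, the 3 largest called changes per list and direction, plus genes given always. Cd4, Krt15, Cldn4, Dsg3, Grhl2, Fcgr1, Adgre1, Cd68, Lyz2, Cd14, Pecam1, Nkd1, Nkd2, Sp5, Tnfrsf19, Ascl2, Mmp7, Ccn4, Ephb2, Myc and Cd44 were named after their values were seen.

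Counts were filtered with filterByExpr (minimum count 10), scaled with TMM and compared across all genes in edgeR 4.0.16 under R 4.3.3 with the two-sided quasi-likelihood test, a gene being called at a Benjamini-Hochberg adjusted p under 0.05. DESeq2 1.42.0, limma 3.58.1 on FPKM, other scalings and filters, a replicate block and each library left out were alternatives. The standard error is the absolute log2 change over the square root of F. Counting intervals are exact (95%) and, like floors, cover counting error only. Replicates differed by a chi-square of 5.895 to 22.75 per degree of freedom, so none was a duplicate. Promoters are from RefSeq (GRCm38.p6). Neighbouring ligand genes were named after their positions were seen. Figures used matplotlib 3.10.9.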

Additional observations from a re-analysis of the deposited data

How the results depend on the processing

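The number of members called was 13 (12 higher, 1 lower). It moved by more than 1.5 times under 3 alternatives: 2 (1 higher) among genes with a mean transwell level of at least 1 FPKM, where 5 members were tested, and 8 (7 higher) in limma on log2(FPKM + 1) and after its quantile normalization. The transwell filter also left 14 of 34 calls among other pathway genes. With each library left out in turn, 12 to 15 members were called, 11 to 14 of them higher. The calls of Wnt4, Wnt6, Wnt7a, Wnt7b, Wnt9a, Wnt10a, Fzd1 and Fzd6 held in every alternative that tested them. Those of Wnt5a, Tcf7, Fzd3, Fzd4 and Fzd8 ended in limma on all 3 FPKM scales, the cause not tested; a fold on log2(FPKM + pseudocount) understates changes of low genes. Uncalled changes turned sign for Lrp5 on log2(FPKM + 1) (0.03) and log2(FPKM + 0.1) (0.04), for Fzd5 after quantile normalization (-0.07) and for Lrp6 without transwell replicate 1 (-0.07; over single libraries left out, -0.07 to 0.24). On the FPKM scales without added scaling, genes tested in both fits had a log2 change that lay 0.11 higher than in edgeR, as the median of the differences per gene. Whether equal replicate numbers pair libraries is not stated. Correlations of deviations from the group means were -0.083, -0.445 and 0.056 for equal numbers, and no library correlated best with its own number. With 3 libraries per group these correlations cannot decide pairing. With the replicate block 13 members were called and 5124 genes in all, against 5286 without it, and no call of a member changed.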
